A study of Homo sapiens with 6 samples.

Results

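Long non-coding RNAs that host small nucleolar RNAs (snoRNAs) were examined in the human melanoma cell line A375 beside 4 well-known long non-coding RNAs that do not carry the host name. The members were found by symbol in the authors' deposited table. They are every row named SNHG followed by a number (25 rows), the hosts GAS5, ZFAS1 and DANCR, the antisense RNA EPB41L4A-AS1, and TUG1, NEAT1, MALAT1 and NORAD, which makes 33 of 28395 rows. The 25 numbered genes with GAS5, ZFAS1 and DANCR form the hosts (28 RNAs). EPB41L4A-AS1 was kept apart from both groups.

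The cells, a single line with the genotype label WT, received olive oil at 0.01% (OLO) as the control or ozonated olive oil at 0.01% (OZO). Both exposures lasted 6 h, and each of the 2 groups had 3 libraries. The measurement used is the authors' mean over all 6 libraries of the log2 CPM (CPM being counts scaled to library size), so a level here blends both oils and no difference between OZO and OLO is given. Since no single library was analysed, no level carries a spread between replicates and no test was run. The lowest values of the table put the libraries at 18409902 counted reads in geometric mean, and each mean was turned into implied reads per library at that size. Of all rows, 48.5% had a mean of at least 10 implied reads, and 7012 had no read in any library. Of the melanocyte lineage markers, SOX10 had 919 implied reads, MITF 499, S100B 51.0 and MLANA 36.6, while PMEL and DCT were under 10 and TYR had none. The keratinocyte marker KRT14 had 77.5 implied reads and KRT5 1.56, the leukocyte marker PTPRC 1.07, the endothelial markers PECAM1 and CDH5 19.5 and 0.10, and the fibroblast markers COL1A1 and DCN 22.3 and 5.12.

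A snoRNA is a short RNA of the nucleolus that guides the chemical modification of other RNAs, mostly ribosomal RNA. Box C/D snoRNAs direct the methylation of ribose, box H/ACA snoRNAs direct the conversion of uridine to pseudouridine, and the related Cajal body RNAs (scaRNAs) act on spliceosomal RNAs. Most human snoRNAs are cut from the introns of a longer transcript, the host. The spliced exons of a non-coding host are often removed by nonsense-mediated decay in the cytosol, and several hosts begin with a terminal oligopyrimidine tract, the start signature that they share with ribosomal protein mRNAs. NEAT1 builds nuclear paraspeckles, MALAT1 resides in nuclear speckles, NORAD acts mainly in the cytosol, and TUG1 is found in nucleus and cytosol.

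The annotation was first compared with the name of the group. In the RefSeq annotation, 25 of the 28 hosts held at least 1 snoRNA or scaRNA gene within their span and outside the exons of their canonical GENCODE transcript. With exon overlap allowed, 27 did, since the small RNAs of SNHG15 (SNORA9) and SNHG22 (SCARNA17) overlapped an exon. SNHG27 held none. TUG1, NEAT1, MALAT1 and NORAD held none, and EPB41L4A-AS1 held SNORA13. GAS5 had the most, with 10 intronic box C/D snoRNAs, followed by SNHG1 with 8 box C/D snoRNAs and 1 small RNA without a family name. By the kind that most of its small RNAs belong to, 10 hosts were box C/D hosts, 12 were box H/ACA hosts and 4 were scaRNA hosts.

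The intronic small RNAs with the most reads in each class are shown to illustrate what the hosts carry, and they were chosen after their values were seen. SCARNA16 had only 1.67 implied reads, and SCARNA17, which overlaps an exon of SNHG22, had the same value. The sequences are those of hg38 at the RefSeq positions, read on the strand of the host. Capitals mark TGATGA where it begins within the first 20 bases and CTGA where it begins within the last 16 bases of a box C/D snoRNA, which are the letters of boxes C and D. In the other classes they mark ACA where it begins within the last 8 bases.
SNORD80 (in GAS5, chr1:173864833-173864903, minus strand): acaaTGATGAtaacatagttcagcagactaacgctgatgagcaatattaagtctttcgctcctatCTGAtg
SNORD74 (in GAS5, chr1:173867674-173867745, minus strand): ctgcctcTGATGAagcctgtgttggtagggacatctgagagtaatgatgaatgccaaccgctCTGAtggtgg
SNORA73A (in SNHG3, chr1:28507365-28507571, plus strand): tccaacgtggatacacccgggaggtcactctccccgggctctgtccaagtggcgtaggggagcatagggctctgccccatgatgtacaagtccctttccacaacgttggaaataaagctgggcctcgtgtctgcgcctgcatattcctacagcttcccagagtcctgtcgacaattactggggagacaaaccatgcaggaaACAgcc
SNORA61 (in SNHG12, chr1:28579764-28579893, minus strand): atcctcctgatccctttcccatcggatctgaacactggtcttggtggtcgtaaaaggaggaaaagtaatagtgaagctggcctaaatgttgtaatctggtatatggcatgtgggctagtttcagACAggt
SCARNA16 (in SNHG20, chr17:77089307-77089493, plus strand): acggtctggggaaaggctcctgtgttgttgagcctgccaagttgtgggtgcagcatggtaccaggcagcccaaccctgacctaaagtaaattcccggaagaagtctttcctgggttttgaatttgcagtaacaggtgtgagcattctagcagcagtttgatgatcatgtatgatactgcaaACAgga
Of the 34 intronic box C/D snoRNAs whose sequence was examined (SNORD87 was left out), 24 held TGATGA near the start, 31 held CTGA near the end and 22 held both. Of the 21 box H/ACA snoRNAs, 19 held ACA near the end and 0 held TGATGA near the start.

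Next, the levels of the members were examined. Of the 33 members, 26 (78.8%) had a mean of at least 10 implied reads, against 17.6% of the 4109 long non-coding RNA rows of the table, among which the members are counted. Of the 28 hosts, 21 reached 10 reads and 7 did not. The 26 RNAs ranged from 2.27 log2 CPM (SNHG10) to 9.81 log2 CPM (MALAT1).

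**Figure D1:**
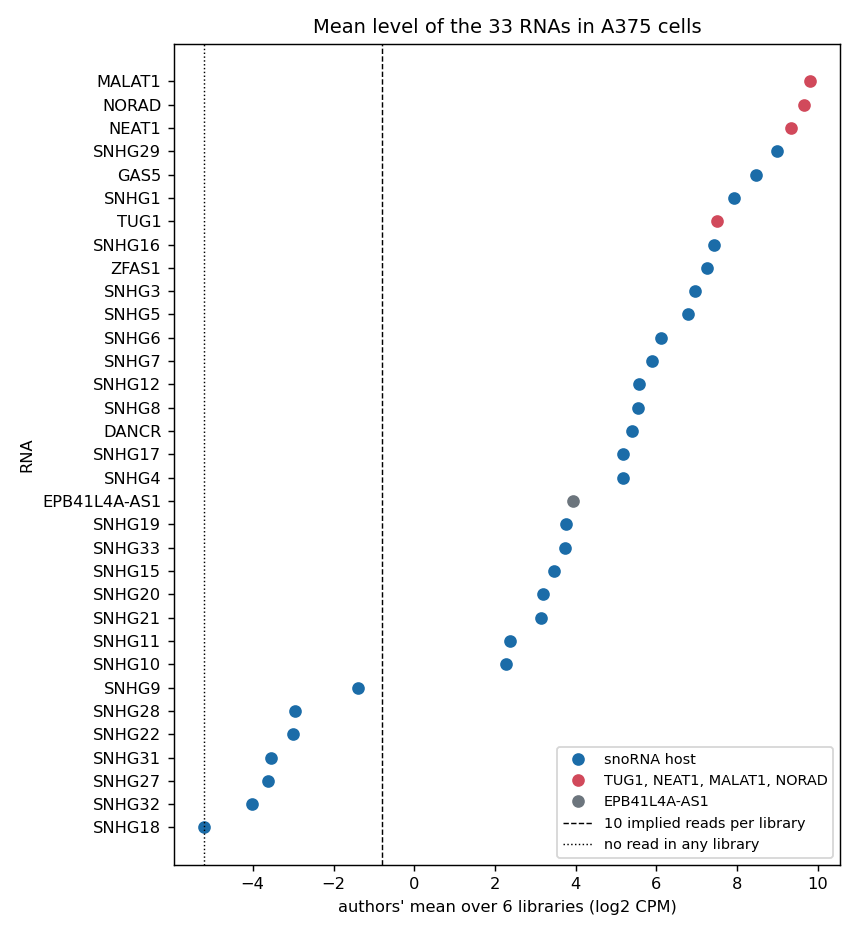
Authors' mean level of each of the 33 RNAs over 6 libraries (x axis, log2 CPM), 1 point per RNA, with lines at 10 implied reads per library and at no read. MALAT1, NORAD and NEAT1 lead at 9.81, 9.65 and 9.33 log2 CPM, and 7 hosts lie left of the line at 10 reads.

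The 4 RNAs outside the host family were all strongly read. MALAT1 (NCBI Gene 378938, chromosome 11, 65497738 to 65506516) had 9.81 log2 CPM, or 16478 implied reads per library. NORAD (chromosome 20, 36045618 to 36050960) had 9.65 log2 CPM and 14799 implied reads. NEAT1 (chromosome 11, 65422798 to 65445540) had 9.33 log2 CPM and 11858 implied reads. TUG1 (chromosome 22, 30969265 to 30979395), which RefSeq now lists as protein coding, had 7.49 log2 CPM and 3304 implied reads. MALAT1, NORAD and NEAT1 were the 3 long non-coding RNA rows with the highest mean, and TUG1 was the tenth.

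The 3 hosts with the highest mean were box C/D hosts, while the box C/D hosts SNHG32 and SNHG18 had the lowest listed means of all 28. The value of SNHG32 is not read as its expression, as described below. SNHG29 (chromosome 17, 16438987 to 16470648), which holds SNORD49A, SNORD49B and SNORD65, had 8.99 log2 CPM and 9362 implied reads, above 98.8% of all rows with a read. GAS5 (chromosome 1, 173863901 to 173869045), named for its rise in growth-arrested cells, had 8.46 log2 CPM and 6489.65 implied reads. SNHG1 (chromosome 11, 62851978 to 62855885), the host of SNORD22, had 7.91 log2 CPM and 4438 implied reads. By mean level these 3 hosts held ranks 4, 6 and 9 among the long non-coding RNA rows. SNHG16 followed with 7.43 log2 CPM, ZFAS1 with 7.25, SNHG5 with 6.79 and SNHG6 with 6.10. SNHG19, the host of SNORD60, was the weakest box C/D host above 10 reads, with 3.75 log2 CPM and 247 implied reads.

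Box H/ACA hosts with at least 10 reads ranged from 2.37 to 6.96 log2 CPM, which overlaps the 3.75 to 8.99 log2 CPM of the box C/D hosts. SNHG3 (chromosome 1, 28505943 to 28510892), the host of SNORA73A and SNORA73B, which take part in ribosomal RNA cleavage, was the highest of them, with 6.96 log2 CPM and 2292 implied reads, above SNHG5, SNHG6 and SNHG19. SNHG7 had 5.90 log2 CPM, SNHG12 5.57, SNHG8 5.55, DANCR 5.40, SNHG17 5.17 and SNHG4 5.16. DANCR, named as an antagonist of differentiation, holds the single SNORA26. SNHG33, SNHG15 and SNHG11 were the weakest above 10 reads, with 3.73, 3.47 and 2.37 log2 CPM. The scaRNA hosts SNHG20, SNHG21 and SNHG10 had 3.19, 3.15 and 2.27 log2 CPM, and EPB41L4A-AS1 had 3.93 log2 CPM and 281 implied reads.

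In hosts with at least 10 reads, the median of the mean level was 7.34 log2 CPM for box C/D, 5.28 for box H/ACA and 3.15 for scaRNA hosts, and these medians kept their order per length. There, the median level per kb of all annotated exons was 4.83 log2 CPM per kb for 8 box C/D hosts, 2.75 for 10 box H/ACA hosts and 0.58 for 3 scaRNA hosts. With the length of the canonical transcript the medians were 7.04, 3.66 and 3.49. The ranges overlapped, since box C/D hosts ran from 3.13 to 6.16, box H/ACA hosts from 0.19 to 4.93 and scaRNA hosts from −0.17 to 3.07 log2 CPM per kb of all annotated exons. These are descriptions of single RNAs, which are not replicates of a class.

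The hosts were then set against TUG1, NEAT1, MALAT1 and NORAD per length, because these 4 RNAs are long. Their canonical transcripts had a median of 8954 bases, against 1517 bases in the 21 hosts with at least 10 reads. Per kb of all annotated exons, NORAD had 7.22 log2 CPM per kb, MALAT1 6.42, NEAT1 4.82 and TUG1 4.14, with a median of 5.62. The 21 hosts had a median of 3.13, and 3 of them lay above 5.62, namely GAS5 (6.16), SNHG1 (5.92) and SNHG29 (5.83). None of the 21 lay above NORAD on this scale, and 13 lay below TUG1.

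This order depended on the length assigned to a host. Many hosts have numerous annotated transcripts, 91 for GAS5, 80 for SNHG1 and 118 for SNHG17, so that the union of their exons is much longer than the canonical transcript. For SNHG29 the union held 8947 bases and the canonical transcript 443. Some of these lengths exceed the whole RefSeq span of the RNA. SNHG5, whose 3.13 is the median of the hosts, has a union of 12604 bases but a span of 85677007 to 85678733. The canonical transcript of SNHG8 has 6166 bases, against a span of 118278762 to 118279823. MALAT1, with 10434 bases, exceeds its span as well. If reads were counted on shorter gene models, such levels per kb come out too low, which was not tested. Per kb of canonical transcript, SNHG29 had 10.16 log2 CPM per kb, GAS5 8.84, SNHG16 8.44 and SNHG1 7.70, and these 4 lay above NORAD at 7.22. The median of the 21 hosts rose to 4.66 on that scale, with 6 hosts above the median of 5.62 of the other 4 RNAs and 9 below TUG1 at 4.59. The levels of MALAT1, NORAD and NEAT1 per kb were the same to 2 decimals under both lengths, because both lengths are equal or nearly equal for these RNAs. NEAT1 has 9 annotated transcripts, and its shorter ones were not used as a length. Which transcripts the cells made was not tested.

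**Figure D2:**
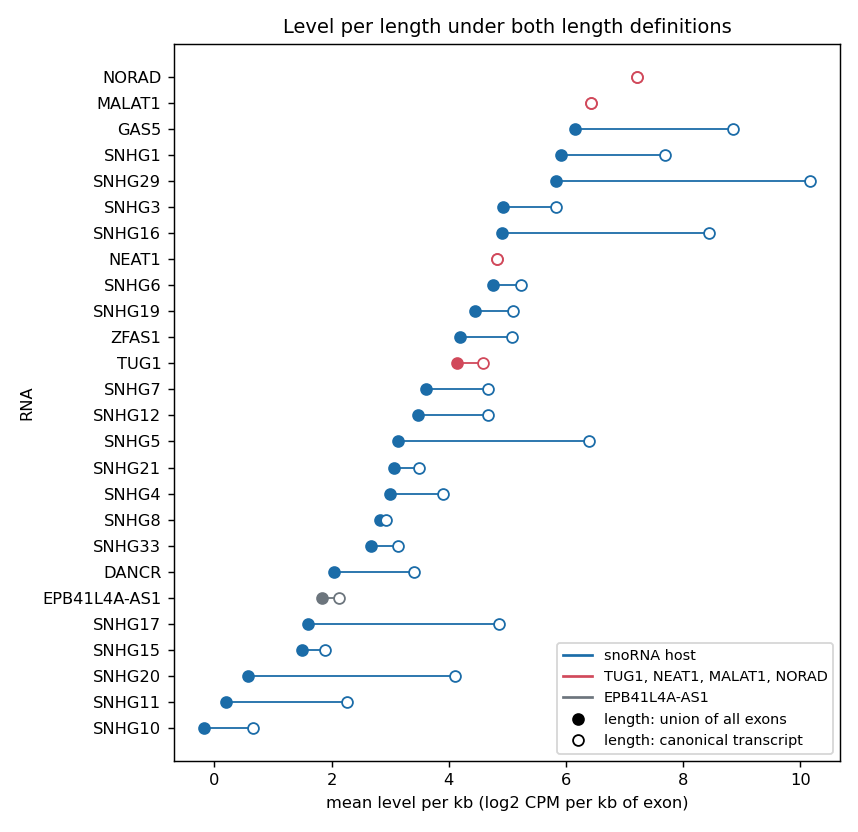
Level per kb of exon (x axis, log2 CPM per kb) of the 26 RNAs with at least 10 implied reads. Filled points use the union of all annotated exons and open points the canonical transcript, and SNHG29 moves from 5.83 to 10.16 while NORAD stays at 7.22.

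The members were also placed among all long non-coding RNAs. With at least 10 reads, 722 such rows were present, and 696 of them were no members. By mean level, 7 of the top 10 rows and 13 of the top 20 were members, and 9 of the top 20 were hosts. Per kb of all annotated exons, 12 of the top 20 were members, and per kb of canonical transcript 10 were. The non-members had a median of −0.94 log2 CPM per kb of all annotated exons, against 3.13 in the hosts, and 0.42 against 4.66 per kb of canonical transcript. Summed over rows, members held 49.3% of the implied reads of all long non-coding RNA rows. The hosts held 22.1% and TUG1, NEAT1, MALAT1 and NORAD held 27.0%. SNHG29, GAS5, SNHG1 and SNHG16 alone held 13.7%.

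**Figure D3:**
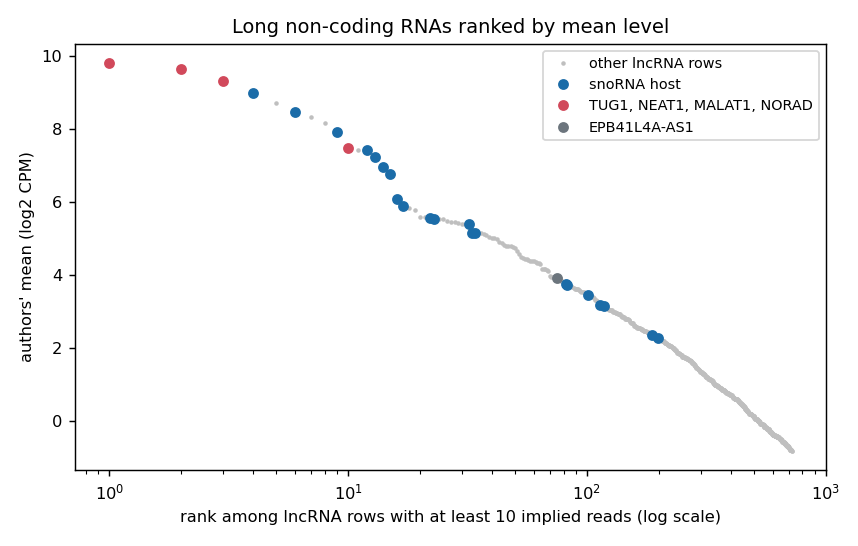
Authors' mean level (y axis, log2 CPM) of the 722 long non-coding RNA rows with at least 10 implied reads against their rank (x axis, log scale). Of the top 20 rows, 13 are members.

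The 7 weakly read hosts were SNHG9, SNHG28, SNHG22, SNHG31, SNHG27, SNHG32 and SNHG18. SNHG9, the host of SNORA78, had 6.47 implied reads. SNHG28 and SNHG22 had 1.86 and 1.79, SNHG31 and SNHG27 had 1.07 and 1.002, and SNHG32 had 0.63. SNHG18, the host of SNORD123, is listed with no read in any library, and 16 of its 20 nearest protein-coding rows had at least 10 reads. Because 0.5 was added to each count before the logarithm, the mean of a weak row gives the product over libraries of the odd numbers formed by doubling the count and adding 1. That product was 135 for SNHG32, which allows between 5 and 67 reads in all, and 735 for SNHG27, which allows between 9 and 367.

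The low value of SNHG32 stood in a stretch of low values. SNHG32 (chromosome 6, 31834916 to 31839761) lies in the major histocompatibility complex and holds SNORD48 and SNORD52, both listed with no read. Of the 20 protein-coding rows nearest to SNHG32, 0 had at least 10 implied reads and 10 had no read at all. These neighbours include genes that most cells use. VARS1, the cytosolic valyl-tRNA synthetase, had 3.40 implied reads, the chloride channel gene CLIC1 had 3.24, the heat shock gene HSPA1A had 1.21, and LSM2, a component of the spliceosome, had none. For the 6 other weakly read hosts, between 6 and 18 of the 20 nearest protein-coding rows had at least 10 reads. The value of SNHG32 is therefore printed as listed and is not read as its expression, and the cause was not tested.

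The rows of the small RNAs themselves were examined beside their hosts. Of the 63 intronic small RNAs of the hosts and EPB41L4A-AS1, 55 have a row in the table, and 38 of these (69.1%) had at least 10 implied reads. Of the 359 other snoRNA and scaRNA rows, 94 (26.2%) had. Where the host had at least 10 reads, 38 of 51 small RNAs did, and where it had fewer, 0 of 4 did. These 4 include SNORD48 and SNORD52 of SNHG32, which lie in the stretch of low values around it. By class, 27 of 35 box C/D snoRNAs, 11 of 17 box H/ACA snoRNAs and 0 of 3 scaRNAs reached 10 reads. Fragments of unspliced host RNA and of the small RNA cannot be told apart in these rows. Intronic refers to the canonical transcript of the host only, so exons of its other transcripts may overlap a small RNA. How reads shared between genes were counted is not given in the sources used here. How well such short RNAs were kept in the libraries is not given either. The rows are therefore not read as levels of the small RNAs.

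Rows of small RNAs of the same host differed widely in reads. In GAS5, SNORD80 had 292 implied reads, SNORD74 had 181, SNORD47 and SNORD44 had 107 each, and SNORD75 had 13.7. The highest and the lowest of the 10 GAS5 snoRNAs differed 21.3-fold in reads. In SNHG1, SNORD31 had 162 implied reads and SNORD29 had 15.2, a 10.6-fold range over 8 snoRNAs. None of the GAS5 or SNHG1 snoRNAs reached the level per kb of its host's canonical transcript, which was 8.84 log2 CPM per kb for GAS5, against 7.81 for SNORD80. Per kb of all annotated exons of the host, 4 GAS5 snoRNAs lay above GAS5 at 6.16, namely SNORD80, SNORD74 (7.09), SNORD44 (6.58) and SNORD47 (6.24), and SNORD31 (7.02) lay above SNHG1 at 5.92. Over all 55 small RNA rows, 10 lay above their host per kb of canonical transcript and 25 per kb of all annotated exons. In SNHG12 the 4 snoRNAs had between 86.5 and 161 implied reads, and all 4 lay above the 4.66 log2 CPM per kb of their host. The small RNAs were divided by their own length, 48 to 275 bases. Reads that reach past so short a gene can still be counted for it. Its level per kb can therefore come out too high beside that of a longer host.

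Small RNAs of hosts with at least 10 reads were not all read. SNHG29, the most read host, holds SNORD49A with 45.9 implied reads, while SNORD65 had 0.33 and SNORD49B had 0.10. SNORA17A and SNORA17B of SNHG7 are listed with no read although SNHG7 had 1097, and so are SCARNA13 of SNHG10 (88.3 implied reads) and SCARNA15 of SNHG21 (162). A row with no read is not taken as absence of the small RNA, given the limits named above.

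**Figure D4:**
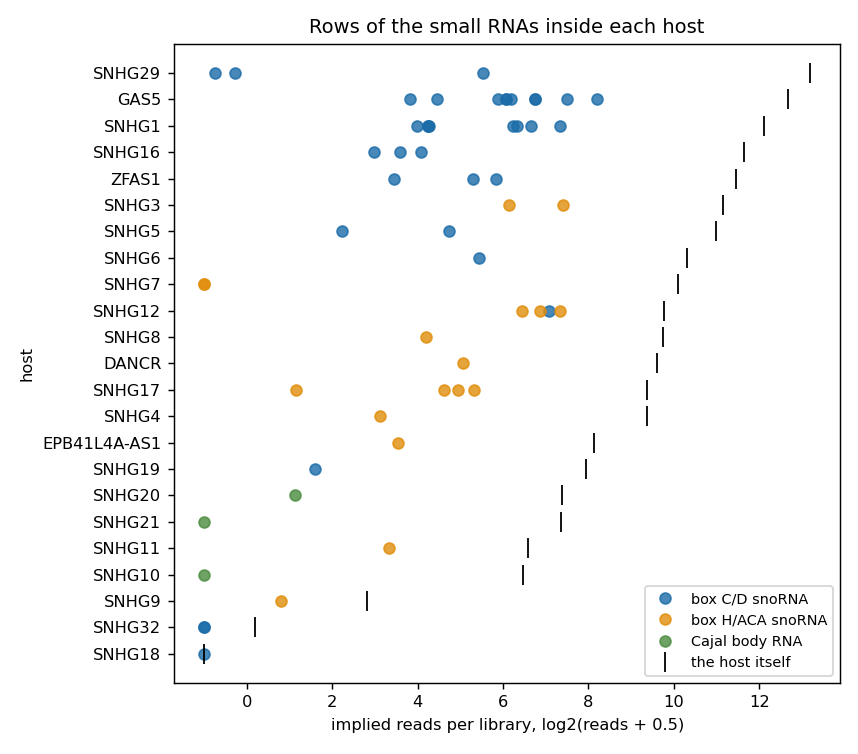
Implied reads per library (x axis, log2 of reads plus 0.5) of each small RNA with a row, by host, with the host itself as a bar. In the GAS5 line 10 points spread from 13.7 to 292 reads, left of the bar of GAS5 at 6489.65.

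The sequences at the transcription starts were then examined, because a start that opens with C and runs on in C and T marks the terminal oligopyrimidine class. A tract was counted where a C within 10 bases of the annotated start opens a run of at least 5 bases of C and T, on the strand of the gene, whatever base precedes that C. RefSeq promoter entries (GRCh38.p14) were found for 29 members. NEAT1, SNHG6, SNHG9 and SNHG15 had no entry. Each window printed holds 30 bases before the start and the 30 bases from the start on, and capitals mark the tract. The first set shows the 7 hosts with such a C exactly at the start, chosen after their sequences were seen.
ZFAS1 (chr20:49278612-49278671, plus strand): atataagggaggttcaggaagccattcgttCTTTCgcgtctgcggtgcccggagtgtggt
SNHG5 (chr6:85678704-85678763, minus strand): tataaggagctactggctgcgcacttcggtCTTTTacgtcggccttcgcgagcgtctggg
SNHG19 (chr16:2155329-2155388, minus strand): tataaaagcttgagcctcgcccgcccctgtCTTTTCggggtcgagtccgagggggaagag
SNHG12 (chr1:28581844-28581903, minus strand): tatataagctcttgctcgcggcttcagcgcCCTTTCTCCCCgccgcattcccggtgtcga
SNHG4 (chr5:139274071-139274130, plus strand): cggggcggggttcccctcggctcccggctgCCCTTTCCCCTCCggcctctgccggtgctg
SNHG32 (chr6:31834886-31834945, plus strand): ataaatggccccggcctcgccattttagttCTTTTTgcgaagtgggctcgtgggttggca
SNHG18 (chr5:9546170-9546229, plus strand): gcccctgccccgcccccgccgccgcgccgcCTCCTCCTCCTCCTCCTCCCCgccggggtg
In SNHG4 the run reached 13 bases and in SNHG12 it reached 11, while in ZFAS1 and SNHG5 it held 5. SNHG18 stood apart with a run of 21 bases made of a CTC repeat. In SNHG4 the base before the tract was neither C nor T. In the other 6 the run of C and T went back upstream of the start, by 1 base in SNHG5, SNHG19, SNHG12 and SNHG18 and by 2 bases in ZFAS1 and SNHG32.

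The second set shows the hosts with the highest level per kb of all annotated exons that have an entry, and the 2 highest of the other 4 RNAs, NORAD and MALAT1, the latter at the first of its 2 annotated starts.
GAS5 (chr1:173869016-173869075, minus strand): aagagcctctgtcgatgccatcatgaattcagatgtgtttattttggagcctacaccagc
SNHG1 (chr11:62855856-62855915, minus strand): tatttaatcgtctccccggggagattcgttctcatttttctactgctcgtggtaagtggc
SNHG29 (chr17:16438957-16439016, plus strand): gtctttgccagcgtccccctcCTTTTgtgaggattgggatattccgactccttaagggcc
SNHG3 (chr1:28505913-28505972, plus strand): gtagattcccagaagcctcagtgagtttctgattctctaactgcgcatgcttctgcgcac
SNHG16 (chr17:76557734-76557793, plus strand): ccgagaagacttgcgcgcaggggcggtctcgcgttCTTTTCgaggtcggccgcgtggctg
NORAD (chr20:36050931-36050990, minus strand): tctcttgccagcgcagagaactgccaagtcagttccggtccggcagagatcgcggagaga
MALAT1 (chr11:65497708-65497767, plus strand): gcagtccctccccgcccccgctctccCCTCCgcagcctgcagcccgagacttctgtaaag
In SNHG16 the tract opened 5 bases after the start, in SNHG29 it opened 9 bases before it, and in MALAT1 it opened 4 bases before it. The run of C and T went back further upstream by 8 bases in SNHG29, 6 in MALAT1 and 2 in SNHG16. GAS5, SNHG1, SNHG3 and NORAD held none within 10 bases of the start, which says only that these letters are absent around this annotated start.

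A tract was found in 16 of the 25 hosts with an entry (64.0%, exact 95% binomial interval 42.5 to 82.0%). The share was 42.3% over 10835 genes with at least 10 reads and 38.4% over all 27305 genes of the promoter table. Among ribosomal protein genes, the textbook carriers of such tracts, it was 85.5% (59 of 69). Exactly at the start such a C stood in 7 of 25 hosts (28.0%, interval 12.1 to 49.4%), against 7.31% of genes with at least 10 reads, 4.78% of 544 long non-coding RNA rows and 69.6% of ribosomal protein genes. Among hosts with at least 10 reads, 13 of 19 (68.4%) held a tract within 10 bases and 5 of 19 (26.3%) held one exactly at the start. Runs of at least 7 bases within 10 bases of the start were found in 5 of 25 hosts and in 3 of 19 hosts with at least 10 reads. These shares were near the background of 18.9% in all genes with at least 10 reads, while ribosomal protein genes had 79.7%. Of TUG1, MALAT1 and NORAD, only MALAT1 held a tract within 10 bases, at its first annotated start but not at its second. None of them held one exactly at the start. The intervals treat genes as independent draws, although the hosts are all those of the group with an entry, so they are no test against the other shares. Annotated starts can also differ from those used in these cells.

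**Figure D5:**
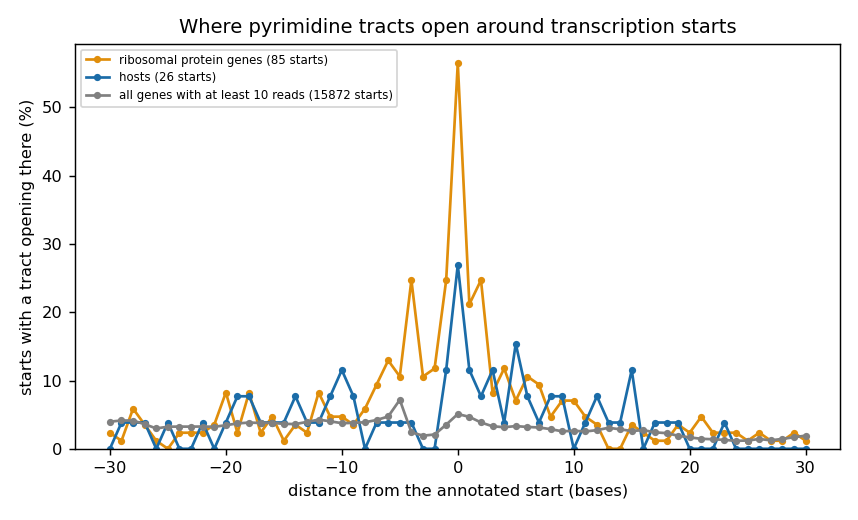
Share of annotated starts (y axis, %) at which a C is followed by C or T to make at least 5 bases, by distance from the start (x axis, bases). At distance 0 it is 26.9% of 26 host starts, 56.5% of 85 starts of ribosomal protein genes and 5.09% of 15872 starts of genes with at least 10 reads.

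The mRNAs of proteins that act with these RNAs were measured in the same table. Those of the box C/D core proteins FBL, NOP56, NOP58 and SNU13 were all above 10 reads, from 4.77 (SNU13) to 6.86 log2 CPM per kb of all annotated exons (FBL, the methyltransferase). The mRNAs of the box H/ACA core proteins DKC1, NHP2, NOP10 and GAR1 ranged from 4.95 (GAR1) to 6.22 (NHP2). Of 9 assembly factor mRNAs 8 were above 10 reads, with RUVBL2 highest at 5.19, and ZNHIT3 is listed with no read. The other 8 had between 603 (NUFIP1) and 3234 implied reads (RPAP3). The value of ZNHIT3 is printed as listed and is not read as absence of its mRNA, and the cause was not tested. All 10 listed genes of nonsense-mediated decay were above 10 reads, from 1.87 (SMG6, an endonuclease) to 5.05 (UPF3B). The mRNAs of paraspeckle proteins, which act with NEAT1, ranged from 4.35 (PSPC1) to 7.14 log2 CPM per kb (SFPQ), and those of the speckle proteins SRRM2 and SON had 5.43 and 5.24.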

How the data were processed

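RNA was sequenced in paired-end mode from A375 cells, 3 libraries with OLO and 3 with OZO. According to the study's methods and the submitters' processing notes, the authors used HISAT2 2.1.0 for alignment against hg38, counted the reads with featureCounts 2.1.1 and ran limma-voom 3.58.1. The libraries were made with a directional kit, and a UCSC annotation of hg38 is named for the StringTie step. The selection of RNA, the gene models and strand setting of the featureCounts step and any filter on low counts are not given in the sources used here. If strand was not used in counting, reads of a gene and of an overlapping or antisense gene (ZFAS1 and ZNFX1, for example) were not separated. The deposited log2 value used is the authors' mean log2 CPM over all libraries. The other deposited columns hold the authors' own comparison of treated with control cells (fold change, its statistics and p-values) and were not used. No comparison between OZO and OLO was therefore made.

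The lowest mean was taken as no read in any library, with the 0.5 that voom adds to each count. All 12761 rows with a product of odd numbers under 100000 (100%) fell on an odd whole number within a relative tolerance of 1e-06. Implied reads are a geometric mean over libraries and approximate, and single library sizes were not recovered. Levels per kb used GENCODE 44 exons, matched by Ensembl identifier or symbol (26672 rows). Small RNA positions came from RefSeq (GRCh38.p14), which gave no strand or exons here, so GENCODE 44 supplied both. GENCODE listed 45 of the 63 intronic small RNAs, all on the strand of the host. Python 3.11.15, pandas 2.3.3, NumPy 2.4.6 and SciPy 1.17.1 were used, and the procedures were tested on simulated data.

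The members and lists were chosen with earlier results of these data known. Every member with at least 10 implied reads is named, and of each list around the pathway the highest and lowest member per length. Of these lists, 1 is not reported here.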

Additional observations from a re-analysis of the deposited data

How the results depend on the processing

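No paired analysis was possible because only a mean taken over all libraries entered the work. For the same reason the alternatives of the comparison between OZO and OLO (another test, scaling or filter, and leaving out each library) were not run, and how far a single library sets a level is unknown.

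The 26 members and 21 hosts with at least 10 reads became 27 and 22 at 3 reads, and stayed 26 and 21 at 30. The median of the hosts, 3.13 log2 CPM per kb of all annotated exons, was 4.26 with the longest transcript, 4.66 with the canonical transcript (chosen after seeing the data) and 5.55 without length. The median of TUG1, NEAT1, MALAT1 and NORAD, 5.62, moved only without length, to 9.49. This was largely fixed in advance, since MALAT1 (10434 bases) and NORAD (5401 bases) have the same length under each definition. NEAT1 has 22767 or 22743 bases, and the shorter of its 9 annotated transcripts were not tried, so its level per kb is not settled. The difference of these medians, hosts minus the other 4, was −2.49 and kept its sign in each alternative that was run. It was −1.36 with the longest transcript, −0.96 with the canonical transcript and −3.94 without length. It was −2.52 with EPB41L4A-AS1 added and also with hosts of at least 3 reads, and −2.32 with hosts that hold an intronic small RNA. All lengths in these alternatives came from the same GENCODE gene models, and some exceed the RefSeq span of the RNA. Lengths kept within the RefSeq spans were not tried, so the kept sign does not cover that case. The 16 hosts with a tract became 13 within 5 bases and 20 within 20 bases of the start, 18 at a run of at least 4, 5 at a run of at least 7 and 7 exactly at the start, the last chosen after seeing the data. The depth limits the weakly read hosts, whose single counts are not fixed by the mean.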

Other observations

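The 7 weakly read hosts differed in their surroundings. Of the 20 protein-coding rows nearest to each, 18 had at least 10 implied reads around SNHG27, 17 around SNHG31, 16 around SNHG18, 13 around SNHG22 and SNHG9, 6 around SNHG28 and 0 around SNHG32. Around the 4 RNAs outside the host family, it was 18 for NEAT1 and MALAT1, which lie side by side on chromosome 11, 17 for NORAD and 14 for TUG1. Besides HSPA1A, its copy HSPA1B near SNHG32 had 3.05 implied reads, and NELFE and SKIC2 had 2.04 and 0.54.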
